A study of Rattus norvegicus with 12 samples.

Results

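The proximal straight tubule cluster (PST) was examined in single-nucleus RNA sequencing of rat kidneys. Its members were all nuclei that the authors' table of nuclei names PST at the level of low-level clusters. The clusters named PST(Spp1+) and PST(S2), the latter for the S2 segment of the straight tubule, are separate and were left out. There were 62692 such nuclei, which is 28.9% of 217132 nuclei and 47.6% of the 131671 nuclei of the 8 proximal tubule clusters. PST was the most numerous of 25 low-level clusters over all rats and the most numerous cluster in 7 of 12 rats.

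The study asked how soluble guanylate cyclase (sGC) activation and stimulation act on the diabetic kidney. All rats were male ZSF1 rats on an energy-rich chow, and kidneys of 3 rats per group were sequenced. The labels give the genotype ZSF1-LeprfaLeprcp/Crl, named for mutant alleles of the leptin receptor gene, to lean and obese rats alike. This is the name of the strain, and the authors treat lean against obese as a difference of genotype. The alleles that the lean rats carry were not given. Lean ZSF1 rats were given neither drug nor vehicle, and their age was not given in the labels. The group called untreated obese consisted of ZSF1 obese rats that received the vehicle of ethanol, Kolliphor and water. The treated obese rats received sGCact (runcaciguat, BAY 1101042) at 3 mg/kg 2 times a day or sGCstim (BAY 1165747) at 3 mg/kg 1 time a day. Vehicle and drugs were given for 12 weeks from an age of 13 to 14 weeks. The lean and untreated obese groups therefore differed in dosing as well as in body type and genotype, which cannot be told apart here. The treated groups differed in the number of doses a day.

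The proximal tubule is the first stretch of the tubule behind the glomerulus and takes back most of the filtered glucose, amino acids, phosphate and small proteins. Its straight part follows the convoluted part (PCT) and runs down into the outer medulla. It takes up the glucose that the convoluted part leaves in the filtrate and secretes organic anions and drugs. Proximal tubule cells are rich in mitochondria and depend on oxidative metabolism, and the straight part is known as a site of injury when oxygen supply falls. Lrp2 encodes megalin, the endocytic receptor for filtered proteins in these cells. Counts per gene were not analysed here, so PST could not be checked against Lrp2 or any other marker. The only check of the name was the cell type given in the same table. Of the PST nuclei, 62688 were typed as proximal tubule and 4 as immune.

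The 12 rats held 10488 to 43484 nuclei and 11898496 to 49272672 UMIs each, a UMI (unique molecular identifier) standing for 1 captured transcript molecule. The labels state that 10000 nuclei were loaded per library, and all 12 rats retained more than that. Rat RK9_4, an untreated obese rat, stood apart with the most nuclei and gave 30174 of the PST nuclei, which is 48.1% of the cluster. No other rat gave more than 8.66%. PST barcodes were shared by 0 to 50 nuclei in each of the 66 pairs of rats. Rats are named as in the table, which gives the group of a rat but not which of the sample entries of the group it is. They were taken as separate animals, since the table names them separately.

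PST was split into populations of unequal UMIs per nucleus in some rats and not in others. In the lean rats the median was 4047 UMIs per PST nucleus in RK1_4, 3220 in RK3_4 and 2226 in RK5_4. In the untreated obese rats it was 639 in RK7_4, 887 in RK9_4 and 1810 in RK16_4. Every untreated obese rat was thus below every lean rat. In the sGCact group the medians were 2301 in RK43_4, 739 in RK45_4 and 2221 in RK46_4. In the sGCstim group they were 2152 in RK57_4, 1832 in RK58_4 and 1908.5 in RK61_4. The sGCstim rats lay close together and above all 3 untreated obese rats, whereas RK45_4 separated from the other sGCact rats.

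Median UMIs of PST fell by 1.61 ± 0.406 (SE) on the log2 scale in untreated obese against lean rats, which is 3.05-fold lower (mean of the rat medians 1112 ± 617 against 3164 ± 912, SD, n = 3 each). The Benjamini-Hochberg adjusted p was 0.0099 in limma, fitted over the 24 clusters with enough nuclei. In this contrast 16.7% of the clusters were called, all of them lower. The medians of all 24 clusters were lower in untreated obese rats, with a median change of -0.45, and no cluster had a lower change than PST. The exact permutation test of the rat medians gave p = 0.1, the smallest that 3 rats against 3 allow. Over all 9 obese rats the fall was 1.08 ± 0.331 on the log2 scale (limma adjusted p = 0.0329, exact permutation p = 0.0182), with 12.5% of clusters called. Of the 27 pairs of an obese and a lean rat, 26 had the lower median in the obese rat.

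These calls depended on where nuclei with few UMIs were left out. With nuclei of at least 1000 UMIs the changes were -0.98 and -0.66 on the log2 scale, and both passed (limma adjusted p = 0.00582 and 0.0381). With at least 1500 UMIs they were -0.48 and -0.44, and neither passed (0.132 and 0.0779). Both UMI limits cut off the low end of the value compared and removed mostly nuclei of obese rats. A smaller difference follows from such a cut, so no conclusion is drawn from the lost calls. With at most 1% mitochondrial UMIs they were -0.85 and -0.62, with limma adjusted p of 0.0517 and 0.0389. The call between untreated obese and lean rats was also lost without RK1_4 (limma adjusted p = 0.0749) or RK7_4 (0.0855). The call over all obese rats was lost without RK1_4 (0.367), RK3_4 (0.0873), RK7_4 (0.0507), RK9_4 (0.0525) or RK58_4 (0.0536).

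No difference in median UMIs between treated and untreated obese rats passed this test. The change against untreated obese was 0.63 ± 0.406 (SE, log2) with sGCact (limma adjusted p = 0.666, 8.33% of clusters called). With sGCstim it was 0.96 ± 0.406 (adjusted p = 0.680, 0% called), although all 9 comparisons of rats were higher (exact permutation p = 0.1, the smallest possible). The difference between sGCact and sGCstim was -0.33 ± 0.406 (adjusted p = 0.791, 4.17% called) and turned to 0.21 without RK45_4. Over the 6 treated rats the change was 0.79 ± 0.351 (adjusted p = 0.432, 0% called). Where limma called 0 clusters, 1 had an unadjusted p under 0.05 with sGCstim and 2 over the treated rats, and PST was among them in both. The change passed with sGCact without RK45_4 (1.16, adjusted p = 0.0261) and with sGCstim without RK16_4 (1.38, adjusted p = 0.0379). Over the 6 treated rats it passed without RK16_4 (1.21, 0.0219) or RK45_4 (1.06, 0.0147).

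**Figure D1:**
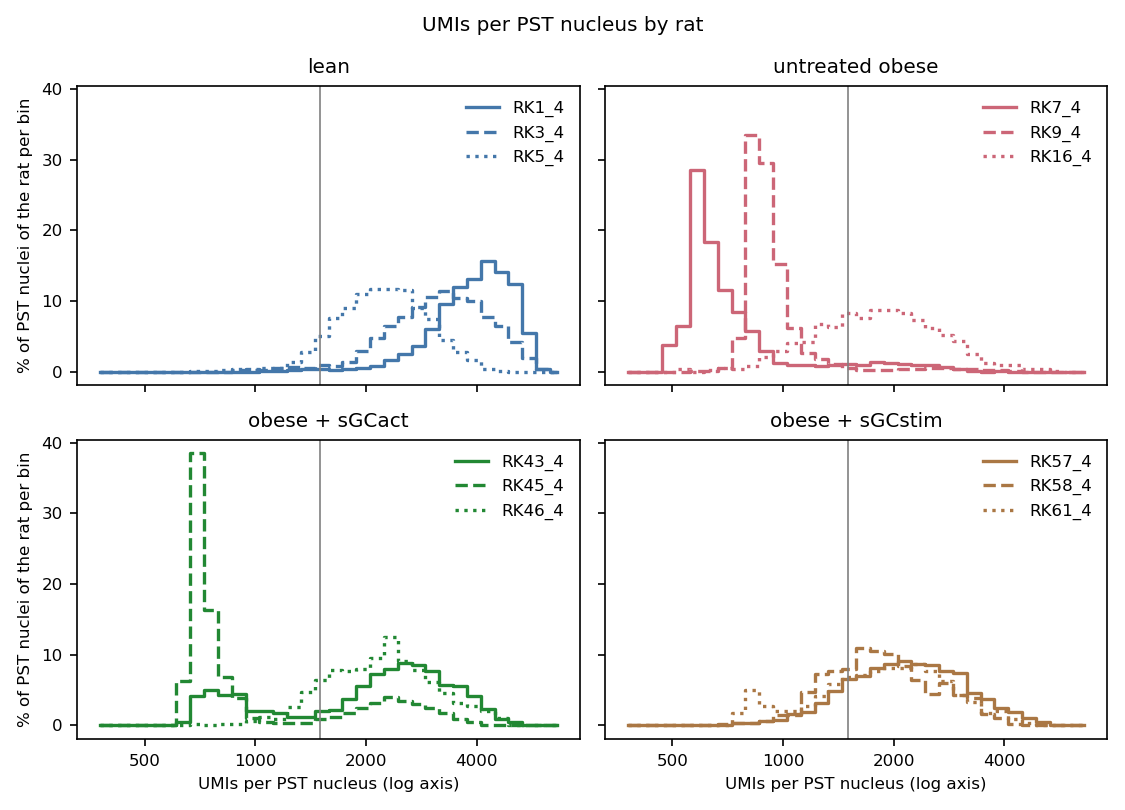
Share of the PST nuclei of each rat (y axis, percent per bin) by UMIs per nucleus (x axis, log scale), 1 panel per group and 1 line per rat, with a grey line at 1500 UMIs. RK7_4, RK9_4 and RK45_4 have a narrow peak below 1000 UMIs, RK43_4 and RK61_4 a small one beside a broad peak near 2000, and the lean rats have only the broad one.

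A division at 1500 UMIs was chosen after these distributions were seen. It is used here to describe the peaks, and the differences given elsewhere with at least 1500 UMIs rest on the same choice. Below it lay 91.5% of the PST nuclei of RK7_4, 95.7% of RK9_4 and 74.7% of RK45_4. In the lean rats this part was 1.04% to 7.64%, and in the remaining obese rats it was 13.1% to 31.7%. No obese rat overlapped the lean rats. The fewest UMIs of any retained nucleus of the rat numbered 468 in RK7_4, 379 in RK9_4 and 622 in RK45_4, beside median UMIs of 625, 882 and 708 in their PST nuclei below 1500.

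The PST nuclei with few UMIs in these rats also had many mitochondrial transcripts. Mitochondrial UMIs made up a median 5.85% of a PST nucleus below 1500 UMIs in RK7_4, 4.42% in RK9_4, 2.58% in RK45_4 and 2.08% in RK43_4. In RK61_4 this median was 0.741%, and in the other 7 rats it was 0 to 0.209%. At 1500 UMIs or more the median was 0 to 0.0553% in all 12 rats. The low mitochondrial content of PST nuclei rich in UMIs was therefore a feature of every rat, untreated obese rats included. Many mitochondrial transcripts at few UMIs were not particular to PST or to obese rats. Among all proximal tubule nuclei below 1500 UMIs the median was 2.74% in RK1_4, 3.27% in RK3_4 and 0.644% in RK5_4, the lean rats. It was 5.59% in RK7_4, 4.27% in RK9_4 and 5.41% in RK61_4, and lowest in RK58_4 at 0.159%.

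Over all PST nuclei the median mitochondrial percentage was 5.33% in RK7_4, 4.28% in RK9_4 and 2.03% in RK45_4, and under 0.1% in the other 9 rats. Untreated obese rats had 3.23% ± 2.78 (SD, n = 3) and lean rats 0.0171% ± 0.0149, a difference of 3.81 ± 1.35 (SE) on the scale of log2(percentage + 0.1). It did not pass (limma adjusted p = 0.199, 0% of clusters called), although all 9 comparisons of rats were higher (exact permutation p = 0.1, the smallest possible). Without RK16_4 the difference was 5.39 and passed (limma adjusted p = 0.0167). Over all 9 obese rats it was 1.78 ± 1.10 (adjusted p = 0.778, 0% called).

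The sGCact rats had a median of 0.694% ± 1.15 (SD, n = 3) and the sGCstim rats 0.0254% ± 0.044. The changes against untreated obese on the log2(percentage + 0.1) scale were -2.34 ± 1.35 (SE) with sGCact (limma adjusted p = 0.534, 4.17% of clusters called) and -3.76 ± 1.35 with sGCstim (adjusted p = 0.428, 0% called). Over the 6 treated rats the change was -3.05 ± 1.17 (limma adjusted p = 0.510, 0% called), lower in 17 of 18 comparisons of rats (exact permutation p = 0.0476). Without RK16_4 these 3 changes were -3.92, -5.34 and -4.63, and each passed (limma adjusted p = 0.0444, 0.018 and 0.0224). The sGCact and sGCstim groups differed by 1.42 ± 1.35 (adjusted p = 0.709, 4.17% called). Where limma called 0 clusters for the mitochondrial percentage, 1 or 2 clusters had an unadjusted p under 0.05.

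**Figure D2:**
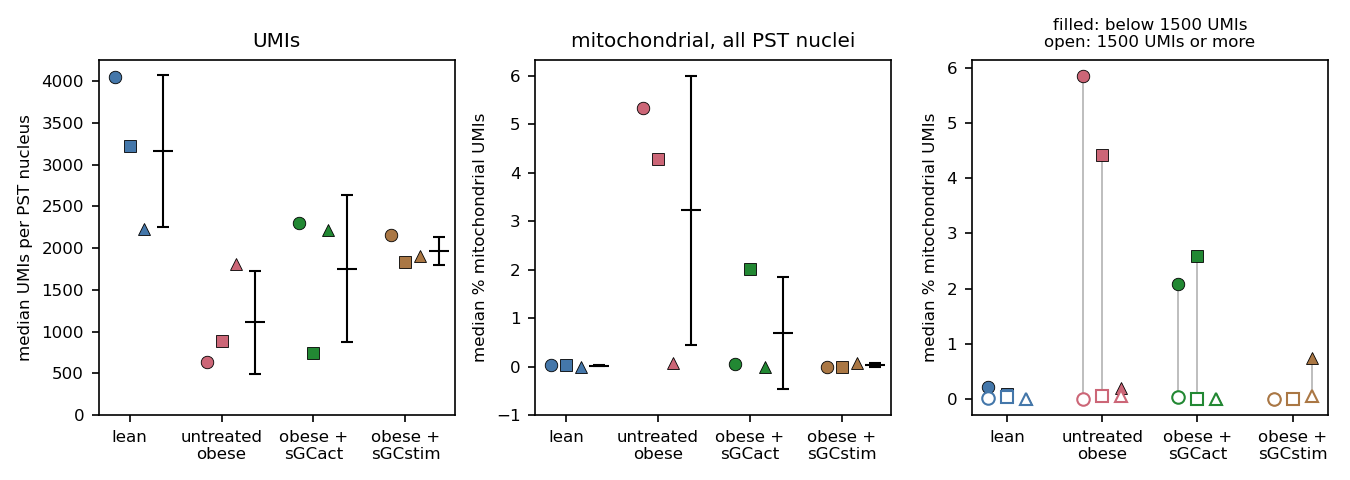
Left and middle, median UMIs and median mitochondrial percentage of the PST nuclei of each rat (coloured points) with the group mean and SD (black). Right, median mitochondrial percentage of PST nuclei below 1500 UMIs (filled) and of 1500 or more (open) in each rat; open points stay at or below 0.0553% and filled points reach 5.85%.

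The number of genes detected per nucleus followed the UMIs. Median genes of PST nuclei ranged from 475 in RK7_4 to 1980 in RK1_4. Among PST nuclei of 1000 to 1500 UMIs alone, the medians were 937, 883.5 and 918 genes in lean rats and 757, 702 and 921 in untreated obese rats RK7_4, RK9_4 and RK16_4. The group means, 913 ± 27.1 and 793 ± 114 (SD, n = 3), were not distinguished by the exact permutation test (p = 0.3). RK7_4, RK9_4 and 2 sGCact rats, RK43_4 with 868 genes and RK45_4 with 818, were below all lean rats. Within this range their median UMIs were also the lowest, at 1218 in RK7_4, 1082 in RK9_4, 1185 in RK43_4 and 1228 in RK45_4. Lean rats had 1265.5 to 1378 UMIs, from 37, 70 and 253 nuclei, so UMIs were not equal between rats here. Median mitochondrial UMIs of the nuclei compared were 1.39% in RK7_4, 5.4% in RK9_4, 0.193% in RK43_4 and 2.79% in RK45_4, and at most 0.317% in the other rats. At 2000 to 2500 UMIs the difference was -67.7 genes (exact permutation p = 0.5).

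**Figure D3:**
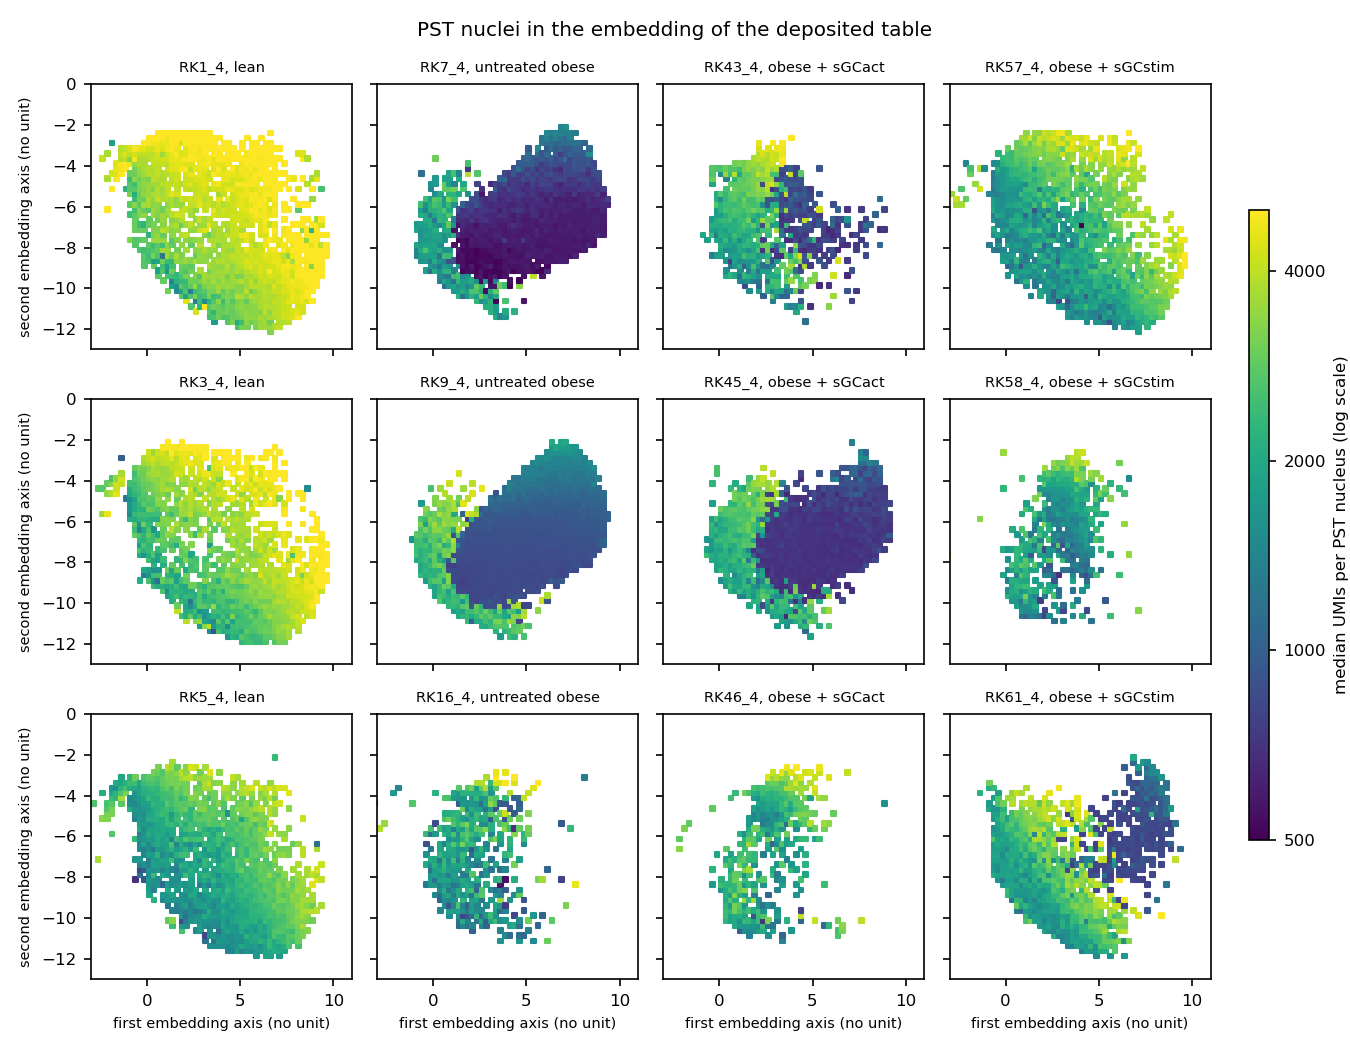
PST nuclei of each rat (1 panel per rat, 1 column per group) in the authors' embedding (both axes without unit); squares are bins of nuclei coloured by their median UMIs on a log scale. In RK7_4, RK9_4 and RK45_4 dark bins of few UMIs fill the middle and right of the cluster, and bins of many UMIs lie at its left edge.

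In the authors' two-dimensional embedding, PST nuclei with few UMIs lay apart from the rest in lean rats and in the rats with a narrow peak, in opposite directions on the first axis. On the first axis the median position of PST nuclei below 1500 UMIs was 5.78 in RK7_4, 4.98 in RK9_4 and 5.02 in RK45_4. The PST nuclei of the same rats with 1500 UMIs or more had medians of 0.39, 0.774 and 1.31. In lean rats the medians were 1.5 to 2.46 below 1500 UMIs and 4.61 to 4.78 at 1500 or more. Distances in such an embedding have no scale, so these positions are given as a description.

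The share of PST among the nuclei of a kidney was even in lean rats and uneven in obese rats. PST held 21.3% of the nuclei of RK1_4 (Wilson 95% interval 20.7 to 21.9), 19.0% of RK3_4 (18.3 to 19.6) and 22.5% of RK5_4 (21.9 to 23.2). In untreated obese rats it held 51.4% in RK7_4 (50.4 to 52.4), 69.4% in RK9_4 (69.0 to 69.8) and 5.84% in RK16_4 (5.45 to 6.25). The untreated obese rats therefore lay on both sides of the lean ones, far outside counting error, which is all that the intervals cover. Under sGCact PST held 8.27% (RK43_4), 21.4% (RK45_4) and 7.88% (RK46_4), and under sGCstim 27.0% (RK57_4), 9.78% (RK58_4) and 18.7% (RK61_4).

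No comparison of groups in this share passed the test. In log odds, untreated obese differed from lean rats by 0.70 ± 0.77 (SE), with limma adjusted p = 0.530 (12% of the 25 clusters called). All 9 obese rats differed from lean by -0.085 ± 0.629 (adjusted p = 0.977, 4% called). Against untreated obese the difference was -1.42 ± 0.77 with sGCact (adjusted p = 0.496), -0.93 ± 0.77 with sGCstim (0.677) and -1.17 ± 0.667 over the 6 treated rats (0.474), each with 0% of clusters called by limma. The sGCact and sGCstim groups differed by -0.49 ± 0.77 (adjusted p = 0.964, 0% called). In limma the 3 contrasts with 0% called for treatment and the one between drugs also had 0 clusters at an unadjusted p under 0.05.

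RK16_4 decided the comparisons of untreated obese with lean and with treated rats. Without it, the untreated obese group was RK7_4 and RK9_4 alone. PST was then higher in untreated obese than in lean rats by 1.77 in log odds (limma adjusted p = 0.0135). The change against untreated obese was then -2.49 with sGCact (limma adjusted p = 0.0109), -2.00 with sGCstim (0.0355) and -2.25 over the 6 treated rats (0.0103). Without RK9_4 the difference of untreated obese from lean rats was -0.0294 (0.969). Among nuclei with at most 1% mitochondrial UMIs, PST held 16.4% in RK7_4 and 30.1% in RK9_4. Lean rats had 24.9% to 27.7%, so RK7_4 was then below them and RK9_4 above.

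Within the proximal tubule, PST held 41.5% to 59.4% of nuclei in lean rats. It held 67.8% in RK7_4, 75.4% in RK9_4 and 15.5% in RK16_4. In the sGCact rats it held 14.5%, 30.7% and 24.2%, and in the sGCstim rats 51.9%, 21.9% and 26.5%. Untreated obese and lean rats differed by -0.0261 ± 0.707 (SE) in log odds (limma adjusted p = 0.971, 12.5% of 8 clusters called), and all 9 obese rats and lean rats by -0.72 ± 0.578 (adjusted p = 0.382, 12.5% called). Against untreated obese, the differences were -1.30 with sGCact (limma adjusted p = 0.256), -0.79 with sGCstim (0.768) and -1.05 over the 6 treated rats (0.270), and sGCact differed from sGCstim by -0.50 (0.621), with 0% called in each. In these 4 contrasts 0 clusters had an unadjusted p under 0.05. Without RK16_4, the change was -2.17 with sGCact (limma adjusted p = 0.0133) and -1.92 over the 6 treated rats (0.0143).

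**Figure D4:**
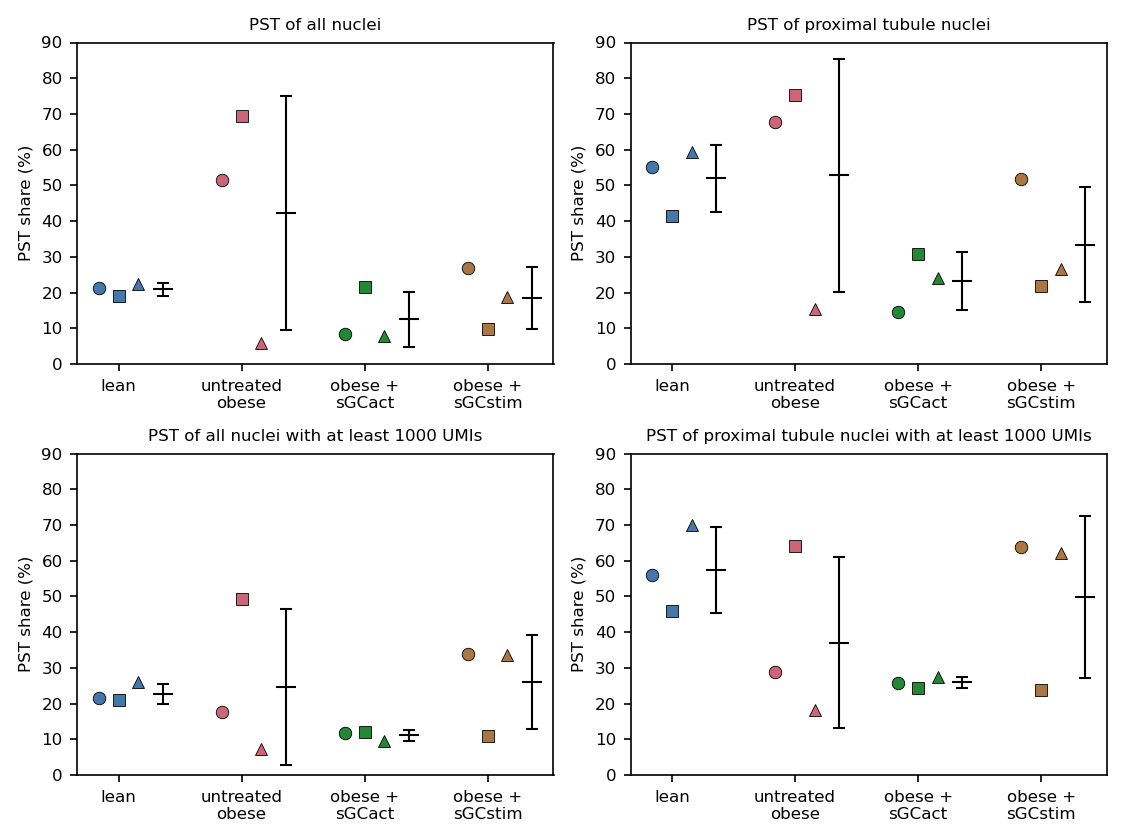
PST as a percentage (y axis) of all nuclei (left) and of proximal tubule nuclei (right) in each rat, for all nuclei (top) and for nuclei with at least 1000 UMIs (bottom); points are rats and black bars group mean and SD. The top right panel shows RK7_4 at 67.8% and RK9_4 at 75.4%, and the bottom right shows them at 29.0% and 64.0%.

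The difference in share between untreated obese and lean rats depended on how many UMIs or mitochondrial transcripts a nucleus was allowed. For the share of all nuclei it turned from 0.70 in log odds to -0.151 with at least 1000 UMIs and to -0.553 with at most 1% mitochondrial UMIs. Within the proximal tubule it was near 0 over all nuclei and lower under each limit. Among proximal tubule nuclei with at most 1% mitochondrial UMIs, PST held 73.3%, 57.2% and 67.9% in lean rats. In untreated obese rats it held 29.1% in RK7_4, 45.1% in RK9_4 and 22.3% in RK16_4, so that every untreated obese rat was below every lean rat. Under sGCact it held 22.2% to 31.5%, and under sGCstim 59.9%, 23.5% and 68.0%. The difference between untreated obese and lean rats was then -1.46 in log odds (limma adjusted p = 0.0541), and that of all 9 obese rats -1.28 (0.0514). With at least 1000 UMIs these differences were -0.92 (limma adjusted p = 0.341) and -0.875 (0.191), and with at least 1500 UMIs -1.66 (0.0523) and -1.23 (0.0595). None passed in limma.

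The count of PST nuclei with 1500 UMIs or more differed less between obese rats than the count of all PST nuclei. There were 3510, 2786 and 3517 of them in lean rats. There were 460 in RK7_4, 1294 in RK9_4 and 523 in RK16_4, where all PST nuclei numbered 5426, 30174 and 766. The sGCact rats had 1269, 1172 and 718 and the sGCstim rats 2793, 875 and 3074. Lean rats gave 44.6% of the 21991 PST nuclei in this range and 16.3% of all PST nuclei, while untreated obese rats gave 10.4% and 58.0%.

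Proximal tubule nuclei with few UMIs were found in every rat, but the cluster that held them differed. In lean rats 1294, 1965 and 1838 proximal tubule nuclei had fewer than 1500 UMIs, and PST held 2.86%, 4.38% and 15.8% of them, with PTnov1 or PCT the leading cluster. In RK7_4 PST held 79.1% of 6276 such nuclei, and in RK9_4 78.3% of 36873. In RK16_4 it held 10.2% of 2372, where PCT led. In RK45_4 it led with 30.4% of 11365, and in RK43_4 it held 5.64% of 8624, where PCT led. RK61_4 had 11915 such nuclei, of which PST held 10.8% and PST(Spp1+) 57.9%. Low-UMI nuclei of the proximal tubule were thus named PST for the most part in 2 rats, both untreated obese. No gene counts were analysed here, and the part of this in the shares above was not tested.

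Compared with the other proximal tubule clusters of the same rat, PST was among the clusters rich in UMIs except in the rats with a narrow peak. These comparisons are given without a test, since clusters were drawn from the expression of the same nuclei. Median UMIs of PST were above those of PTnov1 and PST(Spp1+) in 11 of 12 rats each and above PCT in 9. They were above PTinj, the cluster named for injured proximal tubule, in 6 rats. They were above PST(S2), named for the S2 segment of the straight tubule, in 3. Its median mitochondrial percentage was below that of PTnov1 in all 12 rats, of PST(Spp1+) in 10 and of PCT in 9. RK7_4, RK9_4 and RK45_4 were the 3 rats in which PST had a higher mitochondrial percentage than PCT.

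Whether the fall of UMIs was larger in PST than elsewhere in the proximal tubule was tested per rat. Log2 of the median UMIs of PST minus that of all other proximal tubule nuclei was 1.26, 1.03 and 0.90 in lean rats. It was -1.20 in RK7_4, -0.04 in RK9_4 and 0.29 in RK16_4, all below the lean rats. The means differed by -1.38 (exact permutation p = 0.1, the smallest that 3 rats against 3 allow, adjusted p = 0.2 over 4 tests). Over all 9 obese rats the difference was -0.78 (exact permutation p = 0.1, adjusted 0.2), lower in 22 of 27 comparisons of rats, and without RK43_4 it was -0.92 (exact permutation p = 0.0364). For the mitochondrial percentage the differences were 4.17 (exact permutation p = 0.2, adjusted 0.267) and 2.04 (p = 0.282, adjusted 0.282). With means over nuclei in place of medians the second was 1.89 (exact permutation p = 0.0182).

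The balance of PST with its neighbours was expressed as the log2 ratio of nuclei to PCT, PST(S2), PST(Spp1+) and PTinj. Over all nuclei, PST outnumbered PTinj by 15.2, 10.7 and 18.1 times in lean rats. The ratio was 11.4 in RK7_4, 66.1 in RK9_4 and 0.643 in RK16_4, and 3.33 to 11.1 in treated rats. RK16_4 was the only rat with fewer PST than PTinj nuclei. None of the 24 tests over 4 neighbours and 6 contrasts passed (exact permutation tests, lowest adjusted p 0.381). For PTinj the difference of all 9 obese rats from lean was -1.30 on the log2 scale (exact permutation p = 0.273, adjusted 0.545), and without RK9_4 it was -1.74 (exact permutation p = 0.0364).

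With nuclei of at most 1% mitochondrial UMIs, the PST to PTinj ratio was 16.5, 15.8 and 21.5 in lean rats. It was 1.67 in RK7_4, 4.97 in RK9_4 and 0.67 in RK16_4. It was 4.69, 5 and 4.99 in the sGCact rats and 6.35, 3.38 and 3.42 in the sGCstim rats. All 9 obese rats were below all 3 lean rats, with a difference of -2.43 on the log2 scale (exact permutation p = 0.00909, the smallest possible, adjusted p = 0.0364 over the 4 neighbours). The adjustment did not extend over the contrasts or the selections of nuclei. With at least 1000 UMIs the difference was -2.17 (exact permutation p = 0.0182, adjusted 0.0727), and it was -2.60 with at least 1500 UMIs, the limit chosen after the data were seen.

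The mitochondrial limit itself removed PST nuclei unequally, so this call holds only for the nuclei that it keeps. It kept 767 of 5426 PST nuclei in RK7_4, 2159 of 30174 in RK9_4 and 1461 of 4629 in RK45_4, but 3464 of 3547 in RK1_4. Median mitochondrial percentages of PTinj were 0 to 0.208% in all rats. The ratio went from 11.4 to 1.67 in RK7_4, from 66.1 to 4.97 in RK9_4 and from 11.1 to 5 in RK45_4 with the limit. In the other 6 obese rats it was 0.643 to 6.06 over all nuclei, already below the lean rats. For untreated obese against lean rats the difference was -3.33 with the mitochondrial limit, lower in 9 of 9 comparisons (exact permutation p = 0.1, the smallest possible, adjusted 0.2).

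**Figure D5:**
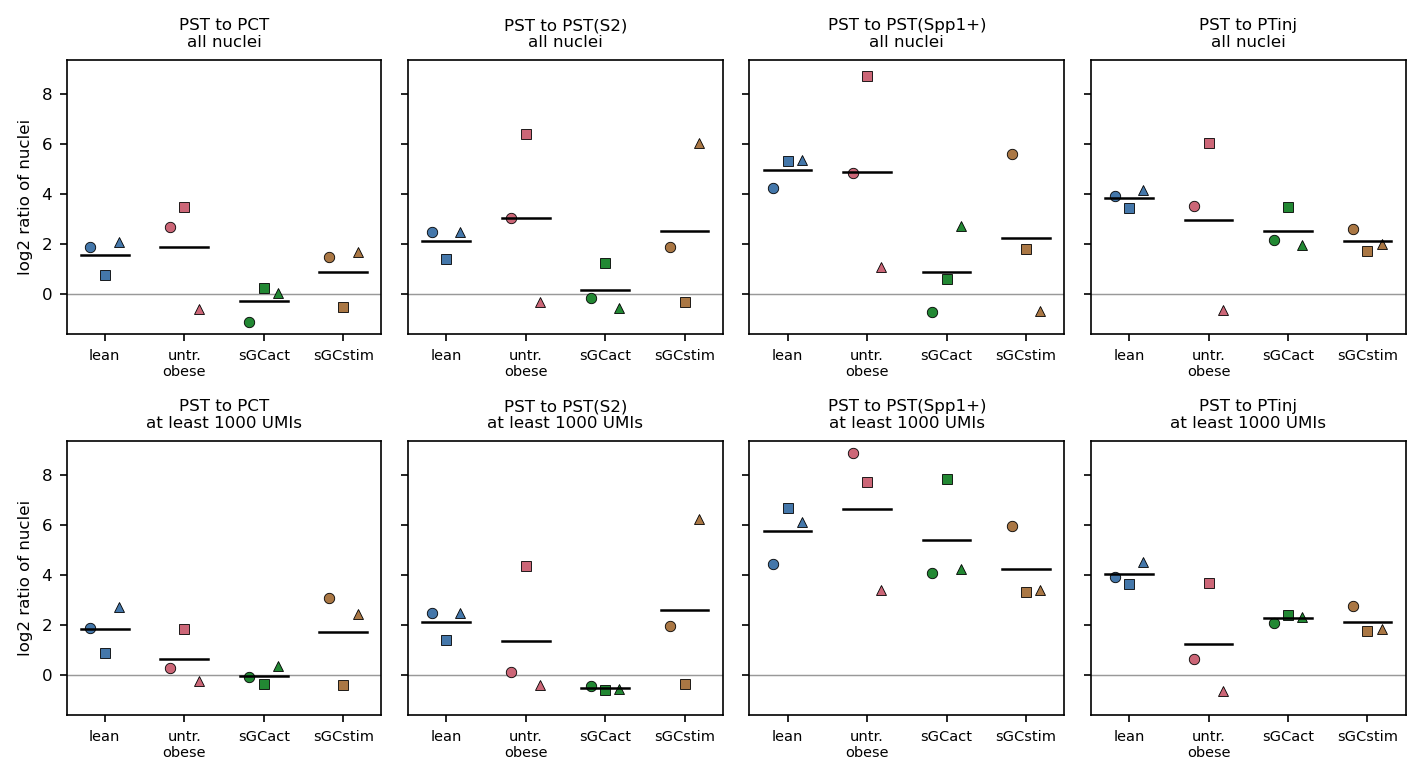
Log2 ratio of PST nuclei to nuclei of 4 neighbouring clusters (y axis) in each rat, for all nuclei (top) and for nuclei with at least 1000 UMIs (bottom); points are rats and lines group means. In the PTinj panels the difference of the 9 obese rats from lean is -1.30 in the top row and -2.17 in the bottom row.

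The other neighbours gave no difference between obese and lean rats that passed in any selection of nuclei. PST outnumbered PCT by 1.68 to 4.27 times in lean rats, by 6.51, 11.3 and 0.668 times in RK7_4, RK9_4 and RK16_4, and by 0.466 to 3.18 times in treated rats. Against PST(S2) the ratio was 2.66 to 5.55 in lean rats, and its lowest and highest values in obese rats were 0.683 in RK46_4 and 83.9 in RK9_4. Against PST(Spp1+) the ratio was 19.1 to 40.7 in lean rats, and 0.6 in RK43_4 to 428 in RK9_4 in obese rats. Over all nuclei, the spread of the obese rats covered that of the lean rats for each of these 3 neighbours. With at most 1% mitochondrial UMIs, the ratio to PCT was lower in untreated obese than in lean rats in 9 of 9 comparisons. The difference was -1.92 on the log2 scale (exact permutation p = 0.1, the smallest possible, adjusted 0.2). With at least 1500 UMIs, the limit chosen after the data were seen, it was -2.22, again lower in 9 of 9 (exact permutation p = 0.1, adjusted 0.2).

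Cell-cycle scores of PST were compared as the mean over the PST nuclei of a rat. The scores sum up genes of a cycle phase against control genes, have no unit, and were near 0 in all rats. The G2M score was -0.0168, -0.021 and -0.0171 in lean rats and 0.00583, 0.00643 and -0.00774 in untreated obese rats. It was -0.0117 to -0.0042 in treated rats, so every obese rat was above every lean rat. The 9 obese rats differed from lean by 0.0135 (exact permutation p = 0.00909, the smallest possible, adjusted p = 0.109 over 12 tests of scores), and by 0.011 among nuclei of at least 1000 UMIs (exact permutation p = 0.00909). With at least 1500 UMIs, RK45_4 (-0.0174) lay within the lean range of -0.0213 to -0.0168, and the other obese rats stayed above it. In all other proximal tubule nuclei the mean G2M score was -0.00683 to -0.0047 in lean rats and 0.000524 to 0.00596 in untreated obese rats. A higher score in untreated obese rats was thus not particular to PST. In treated rats these other nuclei had -0.00507 to 0.00582, which overlapped the lean rats. No test was made of them. The phase call G2M was given to 19.9% to 23.5% of PST nuclei in lean rats and to 24.8% to 43.9% in obese rats. No cycling is read from these calls, and the part of UMIs per nucleus in them was not tested.

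The S score of PST was -0.00425 to -0.0029 in lean rats and -0.00595 to -0.00315 in untreated obese rats. It was -0.000933 to 0.0017 under sGCact and -0.000181 to 0.00525 under sGCstim. All 6 treated rats were above all 3 untreated obese rats, by 0.00567 on average (exact permutation p = 0.0238, the smallest possible, adjusted p = 0.143 over the 12 tests). Leaving out any of the 3 untreated obese rats took the p above 0.05 (0.0714, the smallest possible for 6 rats against 2).

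Across the 12 rats, the share of PST among all nuclei was set against 3 measures of the rat. With the median mitochondrial percentage of PST nuclei, Pearson's r was 0.862 (permutation p = 0.00723, adjusted over the 3 relations 0.0217) and Spearman's rho 0.288 (permutation p = 0.36, adjusted 0.42). Without RK7_4 and RK9_4, r was 0.229, so the relation rested on these rats. With the number of retained nuclei, r was 0.613 (permutation p = 0.064, adjusted 0.0961) and rho 0.259 (p = 0.42), and r was -0.215 without RK61_4 and RK9_4. With the median UMIs of PST nuclei, r was -0.48 (permutation p = 0.113) and rho -0.301 (p = 0.342), and r was -0.485 without RK1_4 and RK7_4.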

How the data were processed

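Nuclei of frozen kidney pieces were sequenced with a droplet method with UMIs. The authors aligned reads to the rat genome (rn6, introns included) with Cell Ranger 6 and used Seurat (names per the submitters' processing notes), excluded nuclei with fewer than 200 genes, more than 3000 genes or more than 15% mitochondrial UMIs, and applied an ambient RNA correction and a doublet caller. They then merged the 12 rats with a batch correction and clustered the nuclei. UMIs per nucleus were deposited as counts, the mitochondrial value in percent of UMIs, S and G2M values as scores, and genes, cluster names and coordinates as other values. The authors corrected for ambient RNA before merging, so UMIs and mitochondrial percentages may be values after that correction. The table gave the rat and the group of each nucleus, in the same group terms as the labels. A total of 0 columns of per-sample values were unused. Counts per gene were not analysed here. The members, lists and tests were chosen with earlier results of these data known.

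Per rat, shares of each cluster (log odds, 0.5 nuclei added to the cluster and 1 to the total) and log2 medians of UMIs and of mitochondrial percentage + 0.1 (clusters with at least 10 nuclei in a rat) were fitted with limma 3.58.1 in R 4.3.3 over 4 groups of 3 rats, with Benjamini-Hochberg adjustment over the clusters of a contrast and a threshold of 0.05. The pseudocount understates changes of low percentages. Single values were compared by two-sided exact permutation tests over rats. The smallest p is 0.1 for 3 rats against 3, 0.0238 for 6 against 3 and 0.00909 for 9 against 3. Relations used 100000 resamples. P-values set a difference against the spread between these rats, and limma also draws on the spread of the other clusters. Clusters of the proximal tubule were named with values, others only where a result turned on them, and rats where 1 changed a call. Alternatives were other scales, edgeR 4.0.16, limits on UMIs and mitochondrial UMIs, thinning to 10488 nuclei per rat or 3412 proximal tubule nuclei, mean for median, and leaving out each rat. The limit of 1500 UMIs was set on seeing the UMI distributions. Python 3.11.15, pandas 2.3.3, numpy 2.4.6 and scipy 1.17.1 were used. The Wilson intervals depend on 766 to 30174 PST nuclei per rat.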

Additional observations from a re-analysis of the deposited data

How the results depend on the processing

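Of 712 alternative values for 46 results, 620 kept direction and side of the threshold, 58 turned direction, 21 passed newly and 13 no longer passed. Exact tests of 3 rats against 3 could not pass, since their smallest p is 0.1, so these counts do not measure robustness. The side was read from adjusted p in limma and edgeR but from unadjusted p elsewhere. The G2M score over all 9 obese rats thus counted as passing, although its exact permutation p adjusted over the scores was 0.109. No paired analysis was possible because the rat names in the table carry no replicate number. The limit of at least 1500 UMIs was chosen after seeing the data. The cause of the changes given here was not tested. With 3 rats per group the spread between rats, not the number of nuclei, sets the precision of each difference.

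The limits on nuclei are given in the order at least 1000 UMIs, at least 1500 UMIs and at most 1% mitochondrial UMIs. The PST share of all nuclei in log odds became -0.151, -0.676 and -0.553 for untreated obese minus lean, and 0.227, 0.684 and 0.406 for sGCstim minus untreated obese. Within the proximal tubule it became 0.575, 1.09 and 0.768 for sGCstim minus untreated obese, and 0.0678, 0.641 and 0.273 for the 6 treated rats minus untreated obese. Median UMIs (log2) of sGCact minus sGCstim became 0.24, 0.16 and 0.22. The log2 ratio of PST to its neighbours, untreated obese minus lean, became -1.21, -2.22 and -1.92 for PCT, -0.76, -1.57 and -1.07 for PST(S2), and 0.90, 1.38 and 1.72 for PST(Spp1+). The ratio to PTinj over all 9 obese rats newly passed at -2.17, -2.60 and -2.43 before adjustment over neighbours.

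With at least 1500 UMIs alone, the share of all nuclei was 0.231 for the 6 treated rats minus untreated obese, and the share of the proximal tubule 0.193 for sGCact minus untreated obese. Median UMIs are themselves cut by this limit. They were then -0.48 for untreated obese minus lean (limma Benjamini-Hochberg adjusted p = 0.132) and -0.44 for all 9 obese rats (0.0779). For sGCstim minus untreated obese they were -0.025. The ratio to PST(Spp1+) over all 9 obese rats was 1.25. With at most 1% mitochondrial UMIs, median UMIs of untreated obese minus lean were -0.85 (adjusted p = 0.0517). The mitochondrial difference of sGCact minus sGCstim was -0.058 with at least 1000 UMIs and -0.021 with at least 1500.

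Other scales turned differences near 0. The share of all nuclei for all 9 obese rats minus lean was 0.0138 on the arcsine scale, 0.216 as centred log-ratio, and 0.0319 and 1.05 in edgeR with the total and with TMM. The share of the proximal tubule for untreated obese minus lean was 0.00211, 0.671, 0.0241 and 0.800 in the same order. With means over nuclei, the mitochondrial difference of PST minus the rest of the proximal tubule passed for all 9 obese rats at 1.89 (exact permutation p = 0.0182).

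Leaving out 1 rat at a time gave these lowest and highest values. The share of all nuclei ranged from -0.0294 (without RK9_4) to 1.77 (without RK16_4) for untreated obese minus lean, from -2.49 to -0.693 for sGCact and from -2.00 to -0.200 for sGCstim minus untreated obese, from -0.327 to 0.273 for all 9 obese rats, and from -2.25 to -0.447 for the 6 treated rats. Without RK58_4 the value over all 9 obese rats also turned (0.0249). The share of the proximal tubule ranged from -0.558 to 0.851 for untreated obese minus lean (positive without RK1_4, RK5_4 or RK16_4), from -2.17 to -0.765 for sGCact and from -1.92 to -0.513 for the treated rats.

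Median UMIs ranged from -2.03 to -1.28 for untreated obese minus lean, from 0.30 to 1.16 for sGCact and from 0.63 to 1.38 for sGCstim minus untreated obese, from -0.61 to 0.21 between drugs, from -1.31 to -0.88 for all 9 obese rats and from 0.46 to 1.21 for the treated rats. The mitochondrial percentage ranged from 2.95 to 5.39 for untreated obese minus lean, from -3.92 to -1.47 for sGCact, from -5.34 to -2.89 for sGCstim and from -4.63 to -2.18 for the treated rats. Every value that newly passed in shares and mitochondrial percentage came without RK16_4, which left RK7_4 and RK9_4 as the only untreated obese rats.

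The S score ranged from 0.00479 to 0.00619 for the treated rats, from -0.00101 to 0.000395 (without RK16_4) for untreated obese minus lean and from 0.00259 to 0.00399 for all 9 obese rats (without RK16_4, exact permutation p = 0.0364). For untreated obese minus lean the ratios ranged from -0.51 to 1.53 for PCT (negative without RK3_4, RK7_4 or RK9_4), from -0.75 (RK9_4) to 2.60 for PST(S2), from -2.02 to 1.82 for PST(Spp1+) (positive without RK3_4, RK5_4 or RK16_4) and from -2.41 to 0.93 (RK16_4) for PTinj. For all 9 obese rats they ranged from -0.76 to 0.11 for PST(S2) (positive without RK16_4, RK43_4, RK46_4 or RK58_4) and from -1.74 to -0.91 for PTinj. The log2 UMIs of PST minus the rest of the proximal tubule ranged from -0.92 to -0.59 for all 9 obese rats.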
